A study of Homo sapiens with 4 samples.

Results

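The genes described here are 9 transcripts that laboratories commonly use to normalise RT-qPCR: ACTB, GAPDH, HPRT1, TBP, B2M, PPIA, PGK1, TUBB and SDHA. They were chosen by name, and their Ensembl gene IDs were looked up in a list of N6-methyladenosine (m6A) peaks that held 20261 peaks on 10140 gene IDs. ACTB was the only member in the list, with 3 of the 20261 peaks. The other 8 genes had none.

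The cells were MDA-MB-231, a widely used human line of triple negative breast cancer, and all 4 libraries came from cells labelled shNS. Poly(A) RNA was fragmented, and 2 libraries were made from RNA immunoprecipitated with an anti-m6A antibody (IP) and 2 from input RNA. For the IP libraries the treatment label gives YTHDC1 but the titles and the protocol give m6A, and the titles set the groups used here. The replicates were combined before peaks were listed, so each peak has a single value, no spread between replicates exists, and no test between IP and input could be made here. The list holds no read counts or expression values, so depth is unknown and the identity of the cells was not checked against markers.

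m6A is a methyl mark that a nuclear methyltransferase complex places on adenosines of mRNA, mostly within RRACH sequences in long internal exons and around stop codons. Reader proteins such as YTHDC1 bind the mark and act on splicing, export and decay of the transcript. A reference gene used in an m6A assay serves either as a loading control, whose amount should not change, or as an unmethylated control, which the antibody should not enrich. The study used ACTB as the loading control in RT-qPCR and HPRT1 as the unmethylated control in m6A-RT-qPCR.

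The members come from unrelated processes. ACTB encodes cytoplasmic β-actin and TUBB a β-tubulin, both building blocks of the cytoskeleton. GAPDH and PGK1 encode consecutive enzymes of glycolysis, and SDHA encodes the flavoprotein subunit of succinate dehydrogenase in the mitochondrion. HPRT1 encodes the enzyme that salvages hypoxanthine and guanine, and TBP the TATA-binding protein of the basal transcription machinery. B2M encodes the light chain of MHC class I molecules, and PPIA encodes cyclophilin A, a peptidyl-prolyl isomerase.

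ACTB (ENSG00000075624) lies on the minus strand of chromosome 7, where RefSeq places it from 5527148 to 5530601 on GRCh38. It had 3 peaks, and the score of each was listed as 0. Each score was taken to be a p-value from the peak caller, although it may be an FDR, and a value of 0 to be one too small for storage. Thus the 3 peaks cannot be ordered by strength. Strong and weak refer here to the score only. A p-value depends on the number of reads as well as on enrichment, so it does not measure how much of a transcript is methylated. Peaks are numbered here from the 5′ end of the transcript.

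The first ACTB peak covered the 5′ end of the gene. It had 180 spliced bases in 3 blocks between 5529959 and 5540750. Its most upstream block, 75 bases from 5540676 to 5540750, ended 10149 bases beyond the RefSeq 5′ end. The next block (5530524 to 5530604) was 81 bases long, of which 78 were inside the RefSeq gene, and the last block (5529959 to 5529982) was 24 bases long. Gaps of 10071 and 541 bases separated the blocks, so this peak was called on a spliced transcript model that starts upstream of the RefSeq gene.

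The second ACTB peak was a single block of 300 bases (5529510 to 5529809) and began 149 bases downstream of the first. The third was a single block of 360 bases (5527477 to 5527836) whose 3′ edge lay 329 bases before the RefSeq 3′ end of the gene. Between the second and the third peak, 1673 bases held no peak. The pattern was therefore a pair of neighbouring peaks in the 5′ part of ACTB and a separate peak near its 3′ end. Which exon, coding stretch or UTR each peak falls in was not analysed here.

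**Figure D1:**
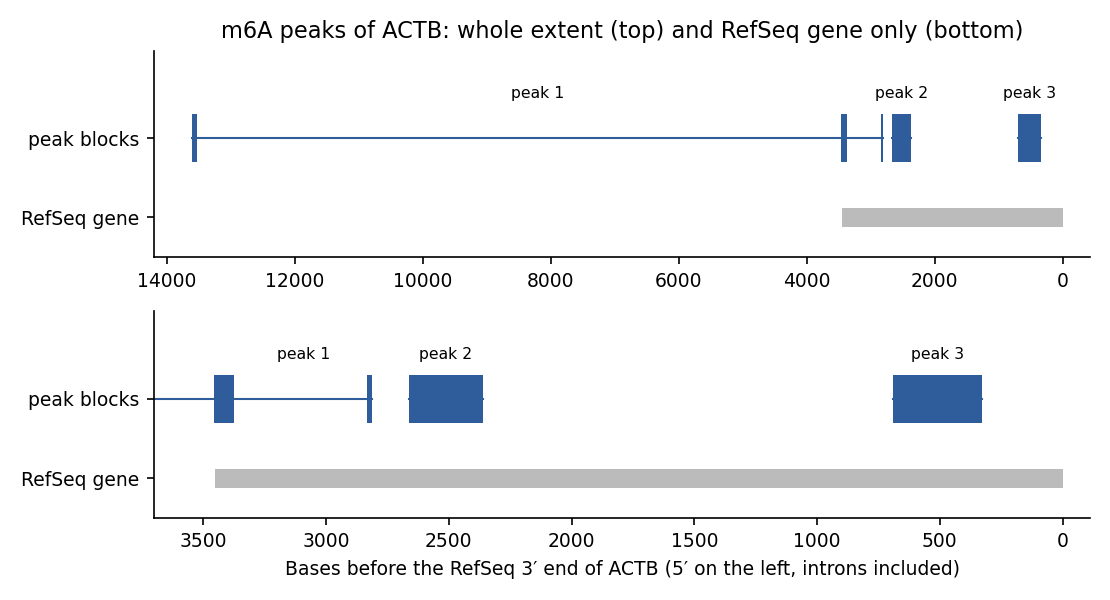
Blocks of the 3 m6A peaks of ACTB (blue) by their distance in bases from the RefSeq 3′ end, with the 5′ side on the left and the RefSeq gene of 3454 bases in grey. The top panel shows the whole extent of the first peak, with a block 10149 bases beyond the RefSeq 5′ end, and the bottom panel shows the peaks of 300 and 360 bases inside the gene.

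The ACTB peaks held 840 spliced bases in all, 762 of them inside the RefSeq span, which is 22.1% of its 3454 bases with introns included. By length the peaks were not extreme. A length of 360 bases or more was found in 25.8% of all listed peaks, and 180 bases or more in 66.5%. ACTB stood out by score, with its number of reads unknown. A strongest score of 0 was listed for 386 of 6624 minus-strand gene IDs (5.83%), and 3 or more peaks at 0 for 3 genes in the whole list, all on the minus strand. In total peak length, 31.4% of minus-strand gene IDs matched or exceeded it. None of the ACTB peaks shared a base with a peak on the opposite strand, and no peak of another gene lay within its span.

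The 8 genes without a peak were GAPDH (ENSG00000111640), HPRT1 (ENSG00000165704), TBP (ENSG00000112592), B2M (ENSG00000166710), PPIA (ENSG00000196262), PGK1 (ENSG00000102144), TUBB (ENSG00000196230) and SDHA (ENSG00000073578). All 8 are on the plus strand, and ACTB was the only minus-strand member. Presence of a peak and gene strand thus cannot be told apart within the 9 genes.

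The strand matters because the list was uneven. Over both strands, 43.7% of 15290 protein-coding genes had a peak. Of 7802 plus-strand protein-coding genes, 2369 had a peak, or 30.4% (95% Wilson interval 29.4 to 31.4%). Of 7488 minus-strand genes, 4310 did, or 57.6% (56.4 to 58.7%). The intervals treat genes as independent and cover counting error only. Having no peak was thus the more common state of a plus-strand gene, at 69.6%, and the 0 of 8 of the reference genes is read against this share. This and the other background shares given here count genes whether or not these cells express them. No expression values were available to restrict them to genes expressed like the members. The unevenness was greater among strong peaks. When only peaks not above the list's median score (5.2e-08) were counted, the shares were 12.6% for the plus strand, 45.3% for the minus strand and 28.6% for both, and ACTB remained the only member with a peak. The strongest score of a listed gene had a median of 4e-22 for the minus strand, against 1e-06 for the plus strand. What part the strand has in the missing peaks of the 8 genes was not tested.

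**Figure D2:**
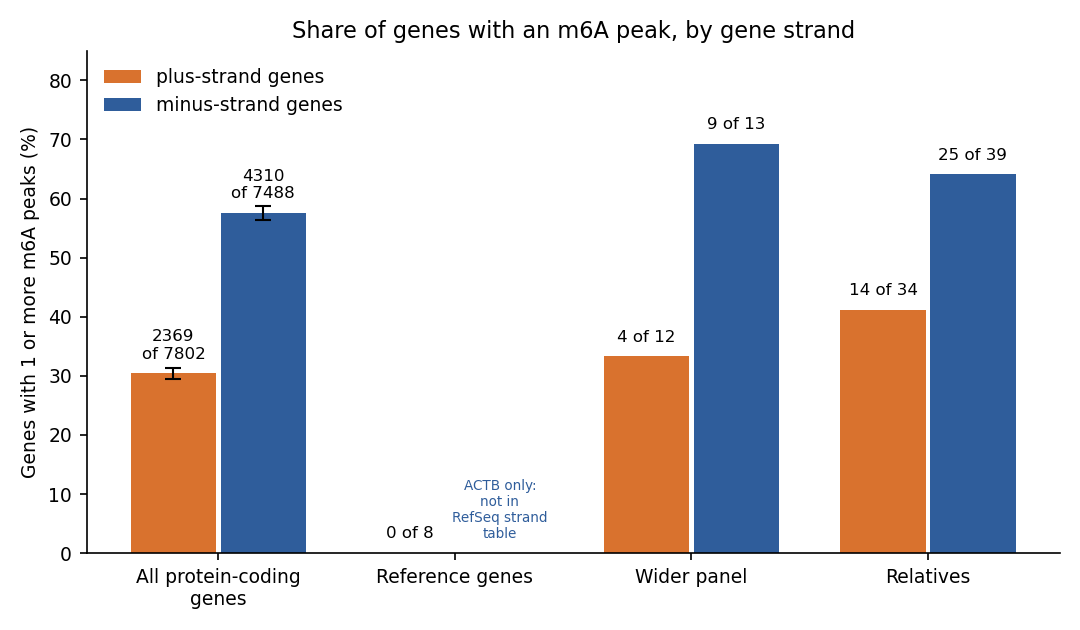
Percentage of genes with 1 or more m6A peaks among plus-strand (orange) and minus-strand (blue) genes, for all protein-coding genes, the reference genes, the wider panel and the relatives of the reference genes, with the counts printed above the bars. Error bars, on all protein-coding genes only, are 95% Wilson intervals, and ACTB has no bar because the RefSeq strand table used for the counts does not hold it. The 8 plus-strand reference genes stand at 0, and in each other set the minus-strand bar is the higher, with 57.6% against 30.4% over all protein-coding genes.

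Genes of similar length gave much the same background for each plus-strand member. GAPDH spans 3855 bases (chromosome 12, 6534517 to 6538371), and among plus-strand protein-coding genes with a span from 0.5 to 2 times as long, 28.1% of 1201 had a peak. TUBB spans 5071 bases (chromosome 6, 30720352 to 30725422), PPIA 6437 bases (chromosome 7, 44796681 to 44803117) and B2M 6629 bases (chromosome 15, 44711517 to 44718145). Among plus-strand genes of similar span the shares were 29.4% for TUBB, 30.0% for PPIA and 30.4% for B2M. TBP spans 18491 bases (chromosome 6, 170554369 to 170572859) and PGK1 25048 bases (chromosome X, 78104248 to 78129295). The share for TBP was 33.3%, and that for PGK1 lay between those of SDHA and HPRT1. HPRT1 spans 40504 bases (chromosome X, 134460165 to 134500668) and SDHA 50427 bases (chromosome 5, 218320 to 268746), with shares of 33.1% for HPRT1 and 32.2% for SDHA. Minus-strand genes of the same lengths had peaks more often, from 48.0% at the span of GAPDH to 66.1% at the span of SDHA. At the span of ACTB, 48.0% of 1044 minus-strand genes had a peak, under the 57.6% of all minus-strand genes.

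No peak of any other gene, on either strand, lay inside the span of any of the 8 genes. The nearest was a minus-strand peak of PSMB1, a proteasome subunit gene next to TBP, which came within 1061 bases of TBP and had a score of 7.9e-46. Within 100 kb of the 8 spans, other genes had 36 minus-strand and 4 plus-strand peaks. Over the whole list, 72.3% of peaks were on the minus strand.

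Around GAPDH, the nearest peak belonged to IFFO1 (score 0.00015, 10558 bases away). The same 100 kb window held 21 minus-strand peaks, the strongest listed at 0 under ENSG00000285238. Among the others were a peak of NOP2, a nucleolar RNA methyltransferase gene (1e-321), and one of CHD4, a chromatin remodeller gene (1e-287). Peaks of ENSG00000285238 cover many of the same bases as those of NOP2 and CHD4, so the 21, and the 36 over all windows, count some regions more than once. It held 2 plus-strand peaks, of NCAPD2 (7.9e-11) and ENSG00000247853 (2.1e-06), and both overlapped a minus-strand peak. None of these peaks reached into GAPDH.

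SDHA and TBP also had very strong minus-strand neighbours. CCDC127 had a peak with a score of 1e-318 at 12409 bases from SDHA, and PDCD2 had a peak with a score of 1e-322 at 8889 bases from TBP. Near PPIA, the nearest peak was on the plus strand, in ZMIZ2 (1.1e-08, 28861 bases away), and the strongest was a peak of the minus-strand gene PURB (1e-250). TUBB had 4 minus-strand peaks of other genes in its window, the strongest in DHX16 (5e-55). HPRT1 had only a peak of PLAC1 (1.5e-07), 65734 bases away, and B2M and PGK1 had none.

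**Figure D3:**
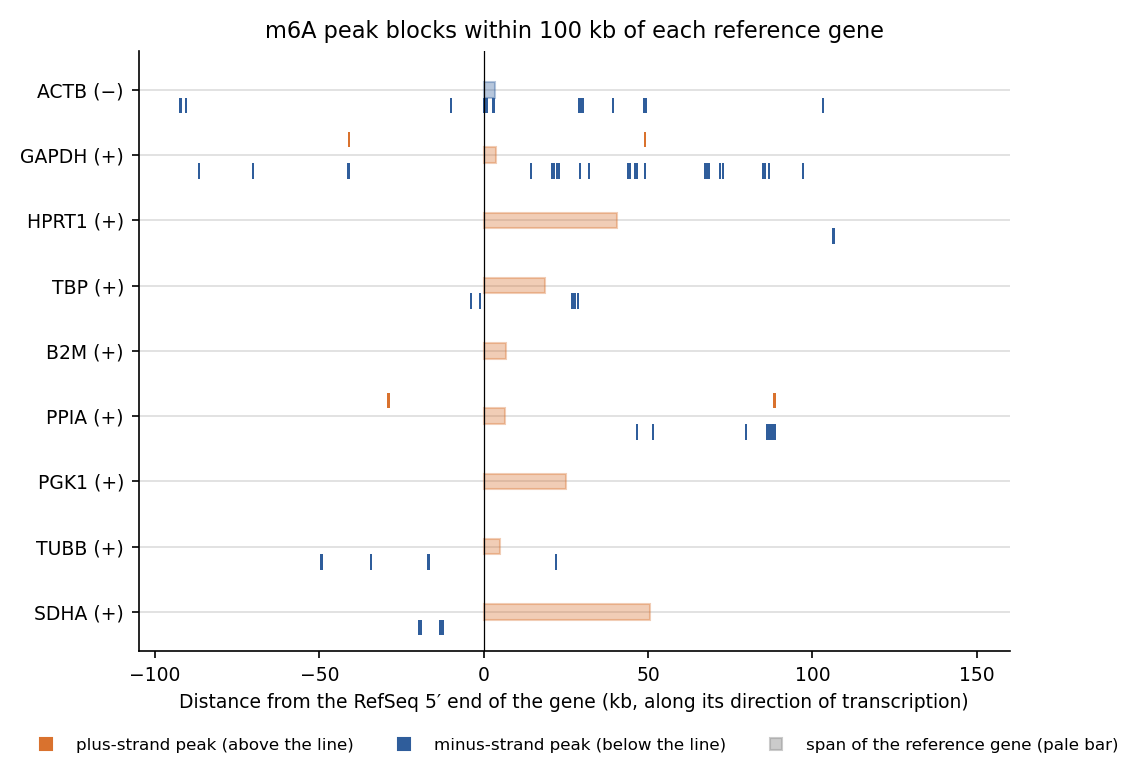
Peak blocks within 100 kb of each reference gene, by distance in kb from its RefSeq 5′ end along its direction of transcription. Plus-strand blocks (orange) are above each line and minus-strand blocks (blue) below it, all drawn slightly wider than to scale so that they can be seen, and pale bars are the gene spans to scale. The spans of the 8 plus-strand genes hold no block of either strand.

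Several of these genes have many pseudogene copies in the genome, and reads from near-identical copies can be placed on more than 1 locus. The authors' mapping set an upper limit on the loci a read may match, and reads over it are left out. Whether reads of any member were lost in this way was not tested. The gene name table held 186 pseudogenes named after a member, of which 89 belonged to PPIA, 65 to GAPDH, 12 to ACTB, 9 to TUBB, 6 to SDHA, 3 to HPRT1 and 2 to PGK1. Of the 186, 4 were in the peak list, with 6 peaks. The share of all pseudogenes in the list was not computed, so these counts are a description only. All 6 peaks were on the minus strand, which holds 72.3% of all listed peaks. They were listed under copies of SDHA and GAPDH, plus-strand members without a peak.

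SDHAP4 had a peak of 570 spliced bases in 2 blocks (chromosome 3, 197614164 to 197615092, score 5e-24). SDHAP3 had a peak of 747 bases (chromosome 5, 1567883 to 1568629, score 1.3e-14) and one of 210 bases (1568748 to 1568957, score 1.3e-07), both at least 2999 bases outside the RefSeq span of SDHAP3. GAPDHP21 had a single peak of 268 bases (chromosome 10, 55667549 to 55667816, score 1.4e-05). GAPDHP62 on chromosome 8 had 2 peaks (scores 1.8e-07 and 0.0027), which shared 204 and 67 bases with peaks of ANKRD46 on the same strand, so the list does not say to which of these genes they belong. No pseudogene of ACTB, PPIA, TUBB, HPRT1 or PGK1 was listed. Whether reads of the parent genes reached these peaks was not tested.

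To place the 9 genes among other candidates for normalisation, 29 further genes that are used or proposed as references were looked up. Of these, 15 had a peak and 14 did not. Among those whose strand RefSeq gives, 4 of 12 on the plus strand (33.3%) and 9 of 13 on the minus strand (69.2%) had a peak, beside a background of 30.4% and 57.6%. For C1orf43 and YWHAZ the strand came from the list itself, and for CYC1 and ATP5F1B, which had no peak, it was not given in the tables used here.

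Minus-strand genes of the wider panel covered a broad range of scores. C1orf43, proposed as a stably expressed gene, had 2 peaks, the stronger listed at 0. VCP, which encodes an AAA ATPase, also had 2 (strongest score 2e-88), and the ribosomal protein gene RPL4 had 1 (4e-83). IPO8, an importin gene, had 3 peaks (strongest 1.3e-82). The transferrin receptor gene TFRC (4e-15) and the ESCRT gene CHMP2A (4e-13) had 2 peaks each, YWHAZ, a 14-3-3 gene, had 5 (6.3e-13), and GUSB, the β-glucuronidase gene (6.3e-13), and REEP5 (3.8e-10) had 1 each. HNRNPL (4.5e-05) and PSMB2 (0.0003) had 1 weak peak each. Of these genes only C1orf43 was listed at the same score as ACTB. None of the peaks of the wider panel shared a base with a peak on the opposite strand.

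Of the plus-strand genes in the wider panel, TOP1, the gene of DNA topoisomerase I, had 1 peak (1.6e-30). NONO, which encodes a paraspeckle protein, had 2 (strongest 2.5e-22), RAB7A, a late endosome GTPase gene, had 1 (3.2e-20), and the ribosomal protein gene RPL13A had 1 (2.1e-07). Placed among plus-strand listed genes, the peak of TOP1 was strong, since 13.3% of them had a strongest score at or under it. The other 8, ALAS1, RPS18, EIF4A2, POLR2A, GPI, PSMB4, SNRPD3 and UBE2D2, had no peak, like the 8 reference genes. Without a peak on the minus strand, where most protein-coding genes had one, were RPLP0, EEF1A1, VPS29 and EMC7. The list does not separate a gene without m6A from a gene with too few reads, on either strand.

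**Figure D4:**
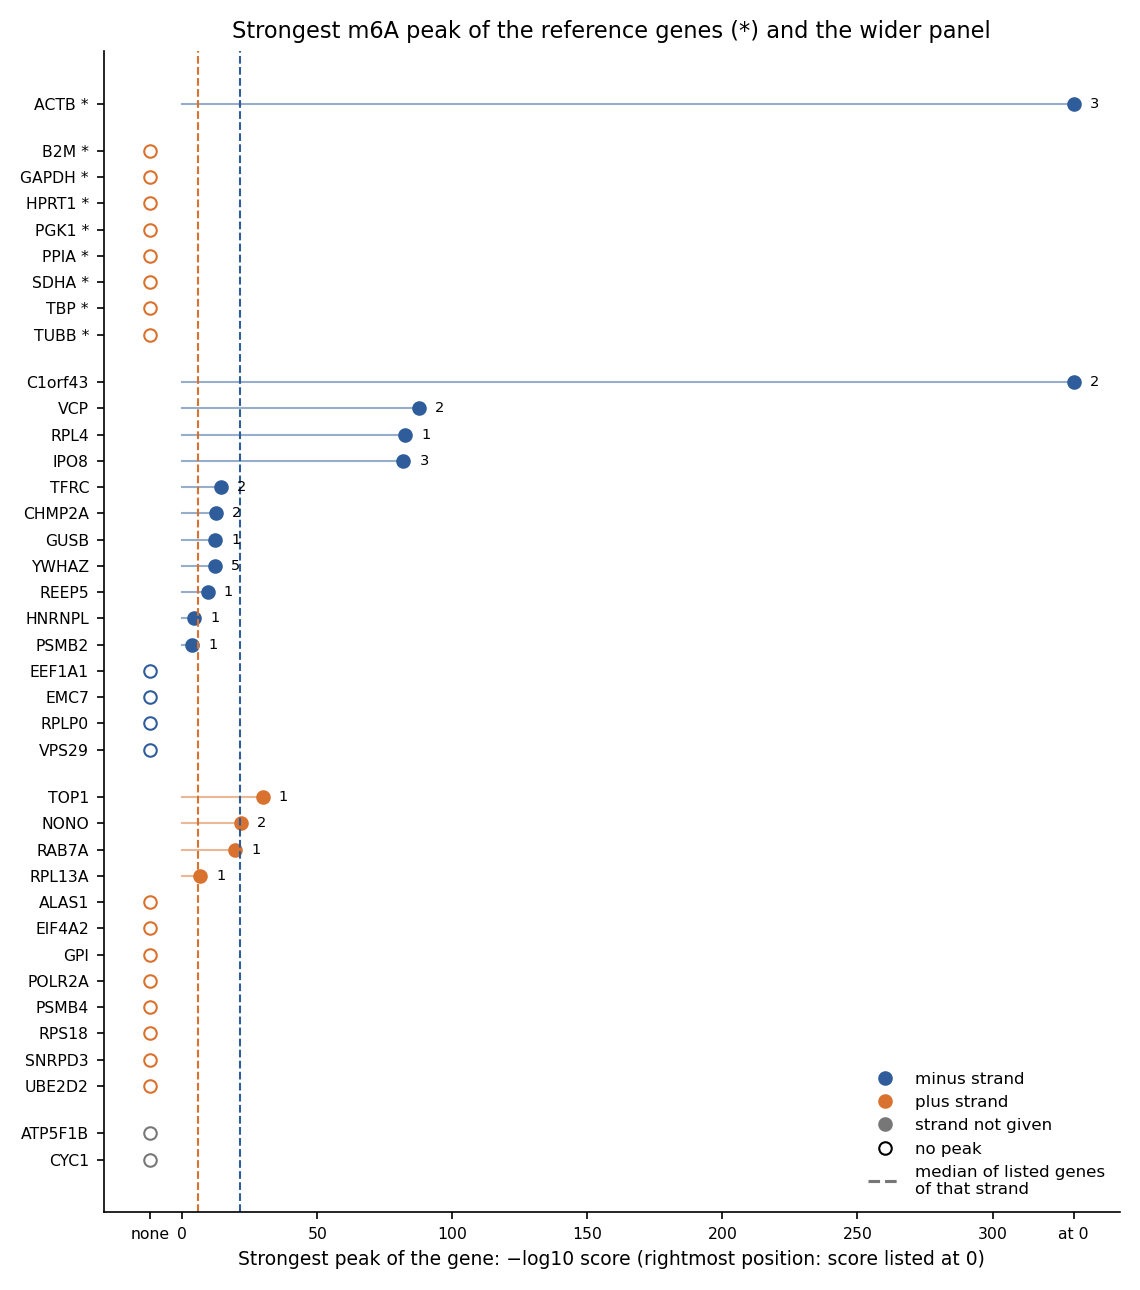
Strongest m6A peak of each of the 9 reference genes (asterisks) and 29 further candidate references, as −log10 of the score, with scores listed at 0 drawn at the right edge and genes without a peak as open circles at the left. Blue is the minus strand, orange the plus strand and grey a strand not given, the number beside a point is the number of peaks, and dashed lines are the medians over listed genes of each strand (4e-22 and 1e-06). ACTB and C1orf43 are at the right edge, and the 8 plus-strand reference genes have open circles.

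Relatives of the members, taken from 8 lists of the same family, complex or pathway, were read in the same way. Of 84 relatives, 42 had a peak, beside 43.7% of the protein-coding genes whose strand RefSeq gives. The 84 include 8 genes whose strand was not given, none of them with a peak. Where RefSeq gives the strand, 14 of 34 on the plus strand (41.2%) and 25 of 39 on the minus strand (64.1%) did, beside 30.4% and 57.6% of protein-coding genes. The counts for single lists that follow are small and are given as a description only. Actins, tubulins and ribosomal protein genes have relatives or pseudogenes that are alike in sequence, so the assignment of their reads is uncertain.

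Among 14 other genes of glycolysis, next to GAPDH and PGK1, 4 had a peak. On the minus strand these were the enolase gene ENO1, with 3 peaks (strongest 1e-253), and the pyruvate kinase gene PKM, with 1 (1e-180). On the plus strand they were the hexokinase gene HK2 (1.6e-60) and ENO2 (0.00087), with 1 peak each. The 8 plus-strand genes HK1, PFKP, PFKL, PFKM, ALDOA, TPI1, PGAM1 and LDHA had none, and neither had ALDOC and LDHB on the minus strand. Thus 2 of 10 plus-strand and 2 of 4 minus-strand genes of glycolysis had a peak.

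Next to ACTB, 6 of 8 genes of actin and actin-binding proteins had a peak. The γ-actin gene ACTG1, on the minus strand and close in sequence to ACTB, had none. Profilin 1 (PFN1, strongest 1e-221) and cofilin 1 (CFL1, 2.5e-17) had 2 peaks each, and α-actinin 1 (ACTN1, 1e-186) had 4. A peak of PFN1 (1e-190) overlapped by 44 bases a peak of ENO3 on the plus strand (2.5e-18). The plus-strand genes TMSB4X (1.5e-07) and ARPC2 (1.1e-05) had 1 weak peak each.

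Next to TUBB, 7 of 10 tubulin genes had a peak, including all 5 on the minus strand. TUBB2B had 1 (1e-186), TUBB2A had 2 (1e-98), TUBB4A had 3 (2.5e-79) and TUBA1B had 2 (5e-63), while TUBA1A had 1 above the list median. The plus-strand gene TUBB6 had 3 peaks, of which the strongest (1e-249) overlapped by 638 bases a peak of AFG3L2, on the minus strand, with the same score. TUBB4B, also on the plus strand, had 2 (strongest 2e-21). TUBB3, TUBA1C and TUBG1, all on the plus strand, had none. TUBB4A and TUBA1B also had a peak that overlapped one on the opposite strand.

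TBP acts within TFIID, and 9 of 16 further genes of TFIID and basal transcription had a peak. TAF7 had 3 peaks, 2 of them listed at 0. The peak at 0 between 141263896 and 141320664 extends past the RefSeq 3′ end of TAF7 and shares bases with at least 1 of the others. The 3 peaks are thus not separate regions. The other minus-strand genes at or under the list median were GTF2A1 (1e-135), TAF11 (1.6e-73), TAF13 (2e-68), TAF2 (7.9e-48), TAF12 (1.6e-30) and TAF6 (1e-24). Both peaks of TAF6 overlapped plus-strand peaks of AP4M1 with similar scores (2e-24 and 2e-25), and 1 peak of TAF11 overlapped a peak on the opposite strand. On the plus strand, TAF3 had 2 peaks (strongest 1e-207), which only 1.79% of plus-strand listed genes equalled or passed, and the paralog TBPL1 had 1 (0.0028) that overlapped a peak of SLC2A12. TAF1 and TAF5, on the same strand as TBP, had none. Neither had TAF4, TAF9, TAF10 and GTF2B on the minus strand, nor TAF8, whose strand was not given. Thus 2 of 4 plus-strand and 7 of 11 minus-strand genes of this list had a peak.

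Among the 11 genes of the MHC class I pathway besides B2M, the heavy chain genes HLA-B (7.9e-48) and HLA-C (1.3e-27) had 1 peak each on the minus strand. These genes are highly polymorphic and alike in sequence, so reads may be split between them. The peak of HLA-B overlapped by 196 bases a peak of ENSG00000271581, on the plus strand, with the same score. The chaperone gene CALR, on the plus strand, had 1 peak listed at 0, a score that 0.995% of plus-strand listed genes reached, and PDIA3 had 2 (strongest 3e-07). CALR was thus a plus-strand gene listed at the same score as ACTB.

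Of 8 further cyclophilin genes, PPIB had 2 peaks on the minus strand, of which the stronger, listed at 0, shared all its 329 bases with a peak of SNX22 on the plus strand, also at 0. On the plus strand, PPIG had 1 peak (1e-128) and PPIF had 1 (2.3e-05), and PPIH had none, like PPIA. PPIC, PPID and PPIL1 on the minus strand also had none, nor had PPIE, whose strand was not given. Thus 2 of 3 plus-strand and 1 of 4 minus-strand cyclophilin genes had a peak. In the succinate dehydrogenase list, SDHB had 1 peak (1e-06), the assembly factor genes SDHAF1 (1.6e-11) and SDHAF2 (6.5e-05) had 1 each, and SDHC, SDHD, SDHAF3 and SDHAF4 had none. Among 10 genes of purine salvage and synthesis, the pathway of HPRT1, 5 had a peak. These were ADA (8.9e-07), PNP (0.00028), PRPS1 (0.0011), IMPDH1 (0.0013) and PPAT (0.0013). None of the 10 had a peak at or under the list median, beside 28.6% of the protein-coding genes whose strand RefSeq gives, and the list is small. APRT, the adenine salvage enzyme gene, had no peak, like HPRT1, although it is on the minus strand.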

How the data were processed

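m6A-seq libraries of MDA-MB-231 RNA, 2 IP and 2 input, were analysed from the single peak list of the series. The authors mapped reads with STAR to GENCODE v33, called peaks with exomePeak (version 2.16) at default settings and required an FDR of 0.05 or less and a fold enrichment of 1 or more. The deposited score was read as the caller's p-value of IP against input. The strand setting of the caller is not given in the sources used here. Peaks were unevenly divided between strands, so a missing peak is given with the share for its strand.

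Gene IDs without version were matched to symbols (10103 of 10140 matched). Spans came from RefSeq genes on GRCh38.p14, and per the labels the reads were processed on hg38. Gene strand came from a RefSeq table that held 15290 of 19110 protein-coding genes, and the other 3820, ACTB among them, were left out of the background. For all 6679 listed genes in that table the strand was the same in both. Peaks overlapped when their blocks shared at least 1 base. Shares were given 95% Wilson intervals (scipy 1.17.1, Python 3.11.15). Overlap and merging functions were tested on simulated data. A genome sequence, exon maps and transcript or protein sequences of the members were not used here, so none is printed.

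The members and lists were chosen with earlier results of these data known. Values were to be given for all members, for minus-strand genes of the other lists with a peak at or under the list median and for plus-strand genes with a peak. Any other gene of these lists could be named. Some genes first placed in the wider panel are not reported here.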

Additional observations from a re-analysis of the deposited data

How the results depend on the processing

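The number of reference genes with a peak (1 of 9) and their number of peaks (3) were the same when only peaks not above the median score were counted, without peaks that overlap the opposite strand and in the first part of the list, before the chromosomes start again. The first was also the same when any peak inside the RefSeq span was counted on the gene's own strand or on either strand, and the second after merging. The wider panel had 12 genes in place of 15 with a peak at or under the median, and 15 otherwise. The background moved more. The share of genes with a peak was 12.6% for plus-strand and 45.3% for minus-strand genes at or under the median, and 27.6% and 56.1% without peaks that overlap the opposite strand. The share of listed genes at the score of ACTB was 4.15% over both strands in place of 5.83%, a setting that adds plus-strand genes and removes no peak. For the other settings, the cause was not tested beyond the smaller number of peaks that each restriction leaves. For the lists of relatives the same settings were added after seeing the data. At or under the median, 3 of 6 genes of actin-binding proteins, 3 of 5 MHC genes, 1 of 3 succinate dehydrogenase genes and none of 5 purine genes remained. The other lists lost fewer, with 8 of 9 TFIID, 6 of 7 tubulin, 3 of 4 glycolysis and 2 of 3 cyclophilin genes left. Without peaks that overlap the opposite strand, 7 of 9 TFIID and 4 of 5 MHC genes remained, and the other lists were unchanged. No paired analysis was possible because every peak has 1 combined value from the 4 libraries, which also prevents leaving out a replicate. As depth is unknown, a missing peak may reflect too few reads.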
